A study of Mus musculus with 9 samples.

Results

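Messenger RNA of stimulated mouse CD4+ T cells that had been given exosomes of wild-type macrophages was compared with that of cells given PBS, the vehicle. The comparison took 6 of the 9 libraries of the study, 3 labelled WT_exo and 3 labelled PBS, chosen by their labels. All cells were splenic CD4+ T cells of genotype WT, taken from males of 6 to 12 weeks. Every culture, controls included, was stimulated with beads that carry anti-CD3 and anti-CD28 and with murine IL-2 at 5 ng/mL. In the WT_exo group, exosomes of bone marrow-derived macrophages of wild-type mice were added at 2e+09 particles/mL for 18 h, and in the PBS group PBS was added for the same time. The other 3 libraries, EKO_exo, came from the same kind of T cells given exosomes of ApoE-deficient macrophages, and are used here only in a direct comparison of the exosome kinds. The controls received no vesicles of any kind, so an effect of these exosomes and an effect of adding vesicles cannot be told apart in this comparison. The replicates are called biological in the study's design, but whether each came from its own mouse is not stated, so the p-values reflect how much these cultures varied.

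Exosomes are small membrane vesicles that cells release, and they carry proteins, lipids and RNA, microRNAs among them, to other cells. Macrophages release them, and ApoE is a lipid-carrying protein that macrophages make. A CD4+ T cell whose receptor and CD28 are engaged leaves quiescence: NF-kB and immediate early genes are induced, glucose and lipid metabolism rise, and the cell enters the cycle, driven on by IL-2. The gene groups below follow those steps.

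The 6 libraries held 28412418 to 32971791 counts each, so levels in CPM, that is counts scaled to a common library size, rest on similar depths. Of 55536 genes in the table, 14046 passed the low-count filter and were tested. On the first principal component of these genes, which held 24.9% of the variance, the PBS libraries lay at -23.8 to -14.8 and the WT_exo libraries at 16 to 23.4. The second component, with 20.9%, set the WT_exo replicates 1 and 2 apart from each other, at -33.8 and 28.5. Cd4 stood at 819.9 to 887 CPM in every library and Cd8a at 1.06 CPM or less, while Cd8b1, the other CD8 chain, stood at 7.98 to 12.1 CPM (233 to 343 counts). The macrophage genes C1qa, Cd163 and Fcgr1 had 0 counts in all 6 libraries, whereas Lyz2 had 314 to 571 counts, Cd68 189 to 265, Csf1r 19 to 56 and Cd14 13 to 31. In RNA of a whole culture, fewer cells that express a gene and less of its RNA per cell cannot be told apart.

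Many genes differed by a small amount. Of the 14046 genes tested, 436 (3.1%) rose and 632 (4.5%) fell, 1068 (7.6%) in all, at an adjusted p under 0.05 in the edgeR quasi-likelihood test. The count of each gene list below is to be read against these shares, 3.1% for rises and 4.5% for falls. Highly expressed genes were called more often in both directions, so for lists of such genes these shares are too low a background. The median size of the called changes was 0.24 on the log2 scale, which is 1.18-fold. The median rise was 0.20 and the median fall -0.30, while the median over all genes tested was 0.0017. At mean levels of 5 CPM or more, 1014 genes were called, of which none rose and 3 fell by at least 2-fold, and 4 rose and 55 fell by at least 1.5-fold. Of all genes tested, 22.7% had groups that did not overlap. Both directions lost calls when a library was left out: 134 of the rises and 300 of the falls were called in each of the 6 fits that left out 1 library. Without PBS replicate 1, 225 genes rose and 412 fell, the lowest counts of these fits. Where the call of a gene named below was lost in such a fit, the highest adjusted p is given with the libraries whose absence lost it, each left out alone (PBS 1 stands for PBS replicate 1). The share of genes called rose with the level, from 0.984% of genes under 1 CPM to 18.3% of those at 100 CPM or more. Of the 2586 genes at 100 CPM or more, 251 rose and 221 fell.

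**Figure D1:**
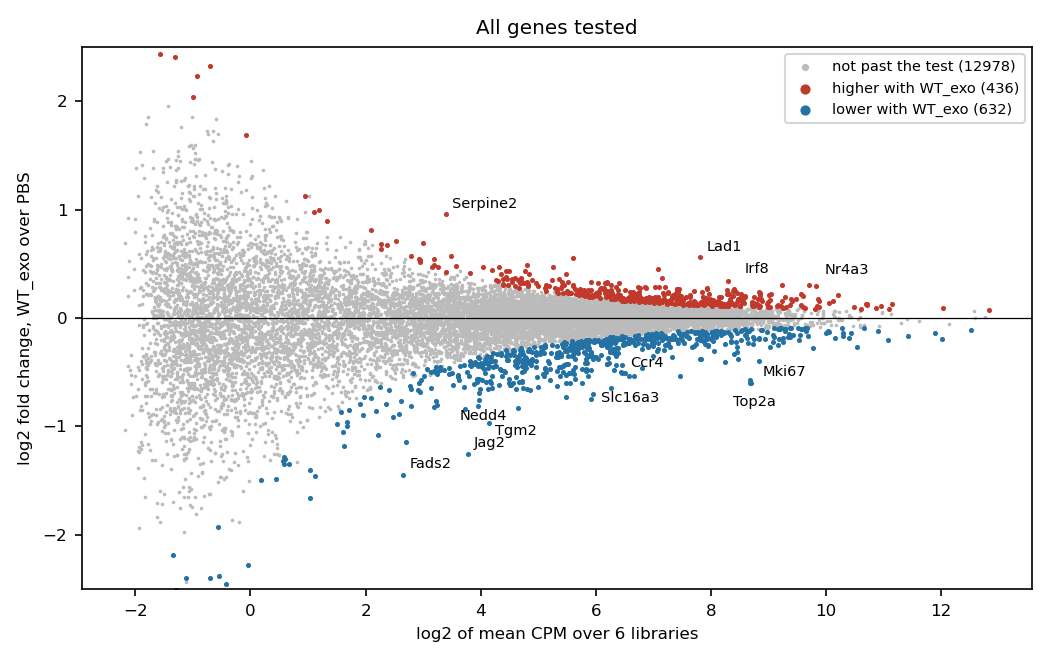
Log2 fold change of WT_exo over PBS against the log2 of the mean CPM over the 6 libraries, 1 point for each of the 14046 genes tested, red where called higher (436) and blue where called lower (632). The called falls reach further from 0 than the called rises at middle and high levels, and 10 genes lie beyond the plotted limit of 2.5.

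Genes of DNA replication and cell division fell together. Of 40 such genes, all of which were tested, 37 fell (92.5%, against 4.5% of all genes tested), 1 rose and 2 did not pass. Their median log2 fold change was -0.39, and 34 of the 37 falls were called in each of the 6 fits that left out 1 library. Mki67, whose protein Ki-67 coats the chromosomes of dividing cells (ENSMUSG00000031004, GRCm38 chromosome 7, 135689784 to 135716361), was at 499, 486 and 484 CPM in the PBS libraries and 328, 343 and 318 CPM in the WT_exo libraries. The groups did not overlap, and every WT_exo library lay below every PBS library by more than 100 CPM. The log2 fold change of Mki67 was -0.57 ± 0.033, adjusted p = 1.77e-15 (± SE of the log2 fold change, edgeR quasi-likelihood test, 3 libraries a group), and every ± after a fold change below is that SE. Top2a, the DNA topoisomerase that untangles sister chromatids (ENSMUSG00000020914, GRCm38 chromosome 11, 98992943 to 99024189), was at 506, 482 and 487 CPM in the PBS libraries and 321, 349 and 303 CPM in the WT_exo libraries. It was lowest in WT_exo replicate 3 and showed no overlap, with a log2 fold change of -0.60 ± 0.037, adjusted p = 1.21e-14.

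By role, the medians ran from -0.22 for origin licensing to -0.57 for mitosis. The 10 genes that license and fire replication origins all fell. They included the helicase genes Mcm5 (-0.26) and Mcm4 (-0.22) and the helicase loader Cdc6 (-0.50). All 4 genes of DNA synthesis fell, with a median of -0.29, among them Pola1, the catalytic subunit of DNA polymerase alpha (-0.51), and Pcna, the sliding clamp (-0.21). The fall of the primase gene Prim1 (-0.19) was among those not held with a library left out, with an adjusted p of up to 0.0675 without PBS 1, PBS 2, WT_exo 2 or WT_exo 3. All 5 genes of nucleotide supply fell, with a median of -0.48. Rrm2, the regulated subunit of ribonucleotide reductase, was at 221, 209 and 197 CPM in the PBS libraries and 150.2, 145 and 137 CPM in the WT_exo libraries. No WT_exo value reached the lowest PBS value, and the log2 fold change was -0.54 ± 0.044, adjusted p = 4.83e-11.

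Of the 12 cyclins, cyclin-dependent kinases and their transcription factors, 10 fell, 1 rose and 1 did not pass, with a median of -0.36. Ccna2, the S and G2 phase cyclin, fell most (-0.65 ± 0.059, adjusted p = 4.09e-10). Ccne1 and Ccne2, the cyclins of S phase entry, changed by -0.47 and -0.52, and Foxm1, a transcription factor of mitotic genes, by -0.43. Ccnd2, a cyclin of G1, was the only one of the 40 to rise (0.13 ± 0.025, adjusted p = 0.000549), while Ccnd3, another G1 cyclin, fell (-0.21). Of 9 genes of mitosis and chromosome structure, 8 fell. They included the survivin gene Birc5 (-0.64), the kinases Aurkb (-0.60) and Bub1 (-0.54), and the kinesins Cenpe (-0.57) and Kif11 (-0.43). The 2 genes that did not pass were Ccnb1 (-0.25 ± 0.20, adjusted p = 0.567) and Aurka (-0.19 ± 0.10, adjusted p = 0.326). Ccnb2 and Plk1 lost their calls with some libraries left out, with adjusted p up to 0.183 without PBS 1, PBS 3, WT_exo 1, WT_exo 2 or WT_exo 3 for the first, and up to 0.102 without PBS 1, WT_exo 1 or WT_exo 3 for the second.

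**Figure D2:**
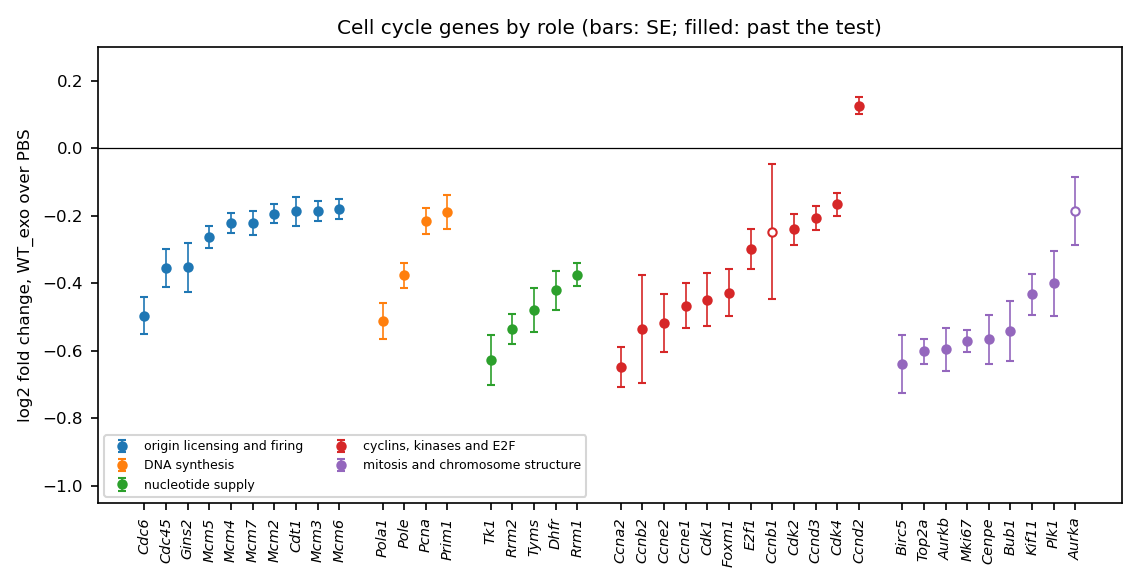
Log2 fold change of WT_exo over PBS for the 40 genes of the cell cycle list, grouped by role. 39 of the 40 lie below 0, the mitosis group has the lowest median (-0.57), and Ccnd2 lies above 0.

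The promoters of Pola1 and Cdc6 are shown because both genes fell and both hold a match to the E2F motif, the site of the factors that switch on S phase genes. Each line gives the 250 bases before the start of the gene, 5' to 3' on its own strand, from RefSeq on GRCm38.p6, with the match in capitals.
Pola1 (chrX:93632156-93632405, minus strand): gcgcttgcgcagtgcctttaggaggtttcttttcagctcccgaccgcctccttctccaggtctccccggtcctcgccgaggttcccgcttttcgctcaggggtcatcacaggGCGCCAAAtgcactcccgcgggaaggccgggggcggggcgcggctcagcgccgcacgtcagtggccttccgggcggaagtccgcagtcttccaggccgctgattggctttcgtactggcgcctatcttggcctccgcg
Cdc6 (chr11:98907901-98908150, plus strand): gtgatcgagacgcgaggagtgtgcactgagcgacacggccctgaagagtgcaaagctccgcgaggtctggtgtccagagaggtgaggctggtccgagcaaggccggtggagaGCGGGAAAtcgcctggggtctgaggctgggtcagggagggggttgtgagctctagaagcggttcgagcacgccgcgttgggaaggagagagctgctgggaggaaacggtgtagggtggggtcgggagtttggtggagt
The search was for TTTNNCGC on both strands, over genes with a single RefSeq start. It was matched in 6 of the 27 cell cycle genes that fell and have such a promoter (22.2%), in 12.0% of all genes that fell, in 6.39% of those that rose and in 8.11% of the genes tested. CCAAT, the box bound by NF-Y, was matched in 19 of the same 27 promoters (70.4%), against 37.3% of the genes tested. TTTGAA, the cell cycle homology region letters, was matched in 7 of them (25.9%), against 10.7% of the genes tested and 4 of the 10 rising interferon gamma genes with such a promoter (40.0%). These are descriptions of letters in a window and not of bound sites. The genes were listed for their known roles, and listed genes that were not called were not counted separately. The share in a list therefore does not bear on the response to exosomes, here and for the promoters below.

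Most of the glycolysis genes fell. Of 22 genes that carry glucose in, break it down or export lactate, 12 fell (54.5%, against 4.5%), 1 rose and 9 did not pass, with a median of -0.17. Of the 12 falls, 10 were called in every fit that left out 1 library. Slc16a3, the lactate exporter MCT4 (ENSMUSG00000025161, GRCm38 chromosome 11, 120948480 to 120960868), was at 75.4, 81.9 and 72.1 CPM in the PBS libraries and 48.3, 45.0 and 48.1 CPM in the WT_exo libraries. These groups lay far apart, with a log2 fold change of -0.70 ± 0.063, adjusted p = 3.48e-10. Tpi1, triosephosphate isomerase, was at 529.8, 542 and 492 CPM in the PBS libraries and 396, 388 and 401 CPM in the WT_exo libraries, again without overlap, with a log2 fold change of -0.40 ± 0.033, adjusted p = 7.65e-11. Glucose transporters were among the falls: Slc2a3 changed by -0.52 and Slc2a1 by -0.26. The enzymes Hk2 (-0.21), Pfkl (-0.24), Gapdh (-0.17), Ldha (-0.16) and Pkm (-0.26) fell too, though Pkm overlaps Gm49759, which is also counted here. Eno3, the muscle form of enolase, was the 1 that rose (0.36 ± 0.096, adjusted p = 0.0133), but its adjusted p was up to 0.12 without PBS 1, WT_exo 2 or WT_exo 3.

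Of 18 tested genes of the hypoxia response, 6 fell (33.3%, against 4.5% of all genes) and none rose, with a median of -0.15. They included Ak4, a mitochondrial adenylate kinase (-0.58 ± 0.095, adjusted p = 4.73e-05), Egln3, an oxygen-sensing prolyl hydroxylase (-0.35 ± 0.047, adjusted p = 2.49e-06), and Pdk1, the kinase that holds back pyruvate dehydrogenase (-0.23 ± 0.046, adjusted p = 0.000565). P4ha2, a collagen prolyl hydroxylase (-1.18), and Bnip3, a mitophagy receptor (-0.69), fell more, although P4ha2 averaged under 5 CPM. Hif1a itself changed by -0.09, with an adjusted p of 0.0355 that was up to 0.249 without PBS 1, PBS 2, PBS 3, WT_exo 1 or WT_exo 2. No member rose, and 16 of the 18 estimates lay below 0.

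Desaturase genes had the largest falls among the lipid genes. Of 13 tested genes of fatty acid synthesis, 6 fell (46.2%, against 4.5%) and none rose, with a median of -0.19. Scd2, a stearoyl-CoA desaturase that makes monounsaturated fatty acids (ENSMUSG00000025203, GRCm38 chromosome 19, 44293674 to 44306864), was at 521, 511 and 474 CPM in the PBS libraries and 336, 331 and 329 CPM in the WT_exo libraries. The 3 WT_exo values lay within a few CPM of each other and far below PBS, with a log2 fold change of -0.60 ± 0.034, adjusted p = 1.77e-15. Fads2, the delta-6 desaturase of polyunsaturated fatty acids (ENSMUSG00000024665, GRCm38 chromosome 19, 10062765 to 10101746), was at 10.1, 10.3 and 7.32 CPM in the PBS libraries and 2.85, 2.47 and 4.80 CPM in the WT_exo libraries. It had the largest fall of the named genes at 5 CPM or more, with a log2 fold change of -1.44 ± 0.20, adjusted p = 3.95e-06. Scd1 (-1.66), which averaged under 5 CPM, and the elongase Elovl6 (-0.50 ± 0.076, adjusted p = 1.62e-05) fell in every fit that left out 1 library. Fads1 (-0.28) and the transcription factor Srebf1 (-0.19) each lost the call in 1 of them, with adjusted p 0.0737 without PBS 2 and 0.0626 without WT_exo 1.

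Few cholesterol genes passed the test. Of 26 tested genes for making cholesterol or taking it up, 3 fell (11.5%, against 4.5%) and none rose, with a median of -0.09 that was -0.05 without WT_exo replicate 1. They included Cyp51 (-0.21 ± 0.044, adjusted p = 0.00155), which overlaps Akap9, and Lss (-0.27 ± 0.072, adjusted p = 0.0152), both enzymes of sterol synthesis. Only Cyp51 was called in every fit that left out 1 library. Lss had adjusted p up to 0.199 without PBS 2 or WT_exo 2, and without PBS replicate 2 the count was 1 of 26. Of 18 tested genes of cholesterol efflux and LXR targets, 1 rose, Nr1h2, the nuclear receptor LXR beta (0.23 ± 0.041, adjusted p = 0.000165), and 1 fell, Scarb1, the HDL receptor (-0.22 ± 0.062, adjusted p = 0.0204). The call of Scarb1 was lost in most of those fits, with adjusted p up to 0.166 without PBS 1, PBS 2, PBS 3, WT_exo 1 or WT_exo 2. Abca1, the transporter that hands cholesterol to lipoproteins, did not pass (-0.06 ± 0.19, adjusted p = 0.924).

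Nuclear genes of mitochondrial metabolism mostly did not pass. Of 23 tested genes of the tricarboxylic acid cycle 2 fell, among them Suclg1 (-0.28 ± 0.044, adjusted p = 1.94e-05), and the count was 1 without PBS 1, PBS 2, WT_exo 1, WT_exo 2 or WT_exo 3. Of 51 nuclear genes of the respiratory chain and ATP synthase 1 fell, Ndufv1 (-0.16 ± 0.050, adjusted p = 0.0363), where 4 fell without PBS 3 and none without PBS 1, WT_exo 1 or WT_exo 2. Of 21 genes of fatty acid oxidation 1 fell, Hadh (-0.28 ± 0.066, adjusted p = 0.00386). Ndufv1 and Hadh lost their calls with some libraries left out: the adjusted p was up to 0.234 without PBS 1, PBS 2, WT_exo 1 or WT_exo 2, and up to 0.0638 without PBS 1 or WT_exo 3. Among mRNAs made in the mitochondria, 7 could be tested and 3 fell, with a median of -0.16 that was -0.06 without WT_exo replicate 2. They were mt-Nd4 (-0.20 ± 0.032, adjusted p = 3.57e-05), mt-Cytb (-0.20 ± 0.023, adjusted p = 1.31e-07) and mt-Nd5 (-0.16 ± 0.027, adjusted p = 4.55e-05), all in every fit that left out 1 library, although mt-Nd5 overlaps mt-Nd6. In this table mt-Co2, mt-Co3, mt-Atp6, mt-Atp8 and mt-Nd4l were listed at 0 in all 6 libraries.

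Some chaperone genes of the endoplasmic reticulum fell, by small amounts. Of 21 tested genes of the unfolded protein response 9 fell (42.9%, against 4.5%) and none rose, with a median of -0.10. The largest fall was that of Atf6 (-0.28), a sensor of misfolded protein, followed by Pdia6, a disulphide isomerase (-0.24 ± 0.036, adjusted p = 1.11e-05). Hsp90b1 (-0.18 ± 0.030, adjusted p = 7.25e-05) and Calr (-0.14 ± 0.025, adjusted p = 0.000193), both chaperones, also fell, and 5 of the 9 were called in every fit that left out 1 library, which is also the count without PBS replicate 1. Of 19 tested heat shock and early stress genes 4 fell, led by Hspd1 (-0.19 ± 0.035, adjusted p = 0.000282), which shares its locus with Hspe1, and Hsp90ab1 (-0.11 ± 0.020, adjusted p = 0.000118). Without PBS replicate 2 or WT_exo replicate 2, 2 of the 19 were called. Tfrc, the transferrin receptor that brings in iron, fell too (-0.25 ± 0.031, adjusted p = 2.68e-07).

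Few genes of growth and protein synthesis passed the test. Of 31 tested genes of MYC and ribosome biogenesis, 2 rose (6.45%, against 3.1%) and 3 fell (9.68%, against 4.5%), with a median of 0.0018. Among all tested genes at 100 CPM or more, 251 of 2586 rose and 221 fell, so these counts are not read as an excess. Myc, the growth transcription factor, rose (0.12 ± 0.030, adjusted p = 0.00763), with an adjusted p of 0.051 without WT_exo replicate 2, and its partner Max rose (0.11) with an adjusted p up to 0.152 without PBS 1, PBS 3, WT_exo 1, WT_exo 2 or WT_exo 3. The nucleolar genes Ncl (-0.14 ± 0.023, adjusted p = 5.79e-05) and Npm1 (-0.14 ± 0.027, adjusted p = 0.000352) fell in every fit that left out 1 library. Of 63 cytosolic ribosomal protein genes 6 rose, but these genes have near-identical copies elsewhere, so their counts are uncertain, and the number was 2, 3 and 1 without PBS replicate 2, PBS replicate 3 and WT_exo replicate 3. Of 23 genes of serine, one-carbon and amino acid metabolism 3 rose and 2 fell. Slc38a2, an amino acid carrier, rose (0.20 ± 0.034, adjusted p = 5.7e-05) and Asns, asparagine synthetase, fell (-0.27 ± 0.045, adjusted p = 6.37e-05). The number that rose was 5 without PBS 3 and 1 without PBS 1, PBS 2, WT_exo 1 or WT_exo 3, and the number that fell was 1 without PBS 1 or WT_exo 1.

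**Figure D3:**
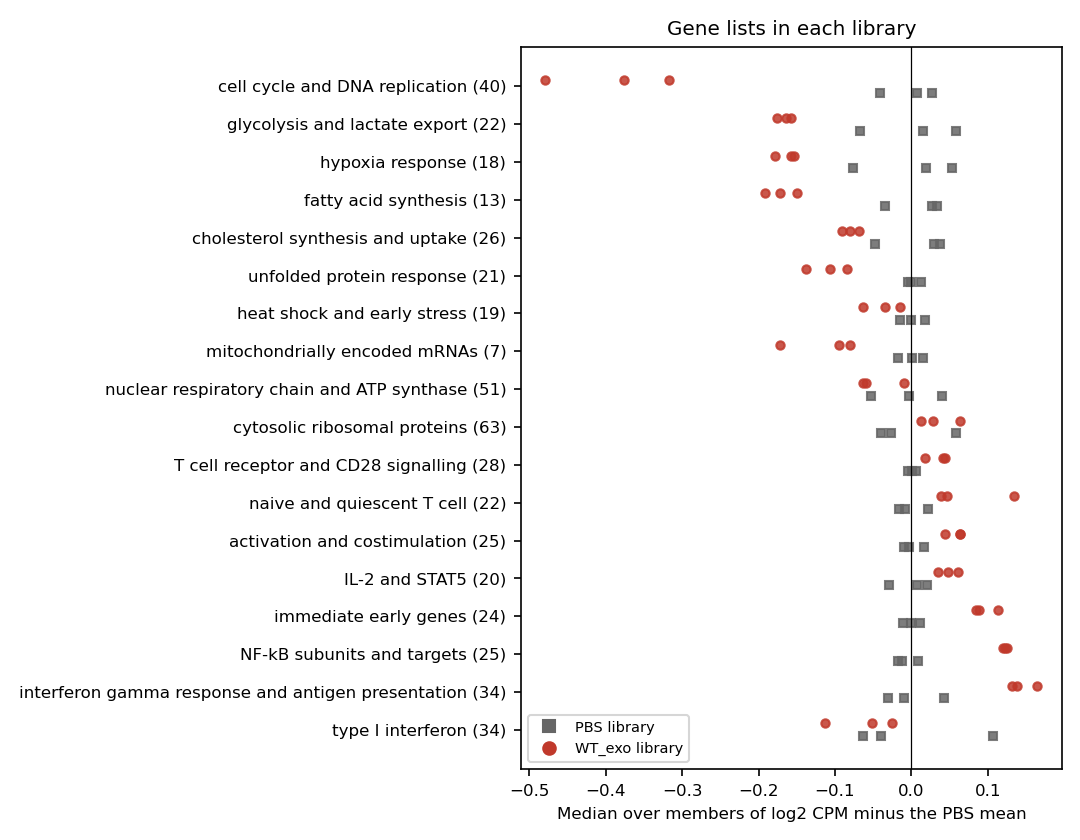
Median over each gene list of the log2 CPM of every library relative to the mean of the PBS libraries, 1 point per library. In the cell cycle row the 3 WT_exo points lie between -0.479 and -0.317, apart from the PBS points, and in the NF-kB row they lie above 0.

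In the other direction, NF-kB genes rose in part and none fell. Of 25 tested NF-kB subunits and targets, 12 rose (48%, against 3.1% of all genes tested) with a median of 0.13, and 23 of the 25 estimates lay above 0. The size of each change was small. Nfkb2, the precursor of the p52 subunit (ENSMUSG00000025225, GRCm38 chromosome 19, 46304320 to 46312385), was at 317, 319.9 and 298 CPM in the PBS libraries and 358, 363 and 356 CPM in the WT_exo libraries. Its groups did not overlap, and the log2 fold change was 0.21 ± 0.034, adjusted p = 5.14e-05, though AC114539.1 overlaps it. Subunits Nfkb1 (0.12), Rel (0.14) and Relb (0.19) rose, as did the inhibitors of NF-kB Nfkbia (0.15), Nfkbib (0.17), Nfkbid (0.16 ± 0.037, adjusted p = 0.00359) and Nfkbiz (0.22). The cytokine targets Ltb (0.20 ± 0.035, adjusted p = 0.000125), Lta (0.15) and Tnf (0.17) and the adhesion gene Icam1 (0.13) completed the 12. Nfkb1, Nfkb2, Ltb and Nfkbid were called in every fit that left out 1 library. The rest were not, and Relb is given below. Nfkbia had adjusted p up to 0.094 and Nfkbiz up to 0.0623, both without PBS 2 or WT_exo 1. Lta had adjusted p up to 0.147 without PBS 1 or WT_exo 2. Rel had adjusted p up to 0.125 without PBS 1, PBS 2, WT_exo 1 or WT_exo 3. For Tnf the adjusted p was up to 0.221 without PBS 1, PBS 2, WT_exo 2 or WT_exo 3. For Nfkbib it was up to 0.118 without PBS 2, PBS 3, WT_exo 1, WT_exo 2 or WT_exo 3. Icam1 lost its call whichever library was left out, with adjusted p up to 0.215. The count of NF-kB rises was 6 without PBS replicate 2 or WT_exo replicate 1 and 7 without WT_exo replicate 3.

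The promoters of Ltb and Nfkbia are shown because they were the 2 of 7 rising NF-kB genes with a single start whose 250 bases held the letters GGGA, any base and then TTTCC, a kappa B site, on either strand (capitals).
Ltb (chr17:35194257-35194506, plus strand): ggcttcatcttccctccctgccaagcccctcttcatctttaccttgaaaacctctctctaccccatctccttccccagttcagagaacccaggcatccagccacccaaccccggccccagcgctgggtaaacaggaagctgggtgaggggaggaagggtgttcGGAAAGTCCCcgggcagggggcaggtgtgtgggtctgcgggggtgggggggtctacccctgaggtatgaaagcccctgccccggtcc
Nfkbia (chr12:55492648-55492897, minus strand): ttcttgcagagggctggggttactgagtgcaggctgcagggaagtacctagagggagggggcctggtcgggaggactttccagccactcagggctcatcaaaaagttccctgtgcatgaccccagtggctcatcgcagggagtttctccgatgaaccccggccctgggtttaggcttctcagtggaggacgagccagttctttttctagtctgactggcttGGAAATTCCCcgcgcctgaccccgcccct
The same letters were found in 0.321% of the genes tested, in 0.752% of all genes that rose and in 0.244% of those that fell. The list was made of known NF-kB genes, and its members that were not called were not counted separately.

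The microRNA miR-146a is known to dampen signalling from Toll-like and interleukin-1 receptors to NF-kB, and it was not measured in these libraries of messenger RNA. Of 14 tested genes listed as its targets or as innate signalling partners, 4 rose (28.6%, against 3.1%) and none fell, with a median of 0.13. They included Notch1 (0.16 ± 0.032, adjusted p = 0.000902), Relb (0.19 ± 0.050, adjusted p = 0.011), which is also in the NF-kB list, and Traf6, an adaptor of those receptors (0.13 ± 0.038, adjusted p = 0.0259). Relb and Traf6 lost their calls with libraries left out, with adjusted p up to 0.111 without PBS 2, WT_exo 1 or WT_exo 3 for the first and up to 0.118 without PBS 1, PBS 2, WT_exo 1, WT_exo 2 or WT_exo 3 for the other. The count was 2 without PBS replicate 2, WT_exo replicate 1 or WT_exo replicate 3. Irak1, the kinase of the same pathway, was at 165, 174 and 169.8 CPM in the PBS libraries and 175, 173 and 161 CPM in the WT_exo libraries. Its groups overlapped and it did not pass (0.0015 ± 0.041, adjusted p = 0.99).

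Genes that interferon gamma induces rose more often than they fell. Of 34 tested genes of this response or of antigen presentation, 19 rose (55.9%, against 3.1%) and 2 fell, with a median of 0.13, and 12 of the rises were called in every fit that left out 1 library. Irf8, a transcription factor of that response (ENSMUSG00000041515, GRCm38 chromosome 8, 120736358 to 120756694), was at 553, 535 and 532 CPM in the PBS libraries and 669, 671 and 660.2 CPM in the WT_exo libraries. Every WT_exo library lay more than 100 CPM above every PBS library, with a log2 fold change of 0.30 ± 0.029, adjusted p = 1.26e-09. Irf1, a factor downstream of the receptor, changed by 0.22 ± 0.030, adjusted p = 2.49e-06. Among antigen presentation genes, the peptide transporter Tap2 changed by 0.25 ± 0.033, adjusted p = 1.97e-06, Tapbp by 0.21 and H2-K1 by 0.11. The GTPases Igtp (0.20), Irgm1 (0.22), Irgm2 (0.21), Gbp2 (0.13) and Gbp4 (0.25), which act against intracellular microbes, held their calls in those fits. Gbp, Tgtp and Irgm genes have close relatives, so reads may be split between copies.

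The receptor chain Ifngr1 (-0.20 ± 0.059, adjusted p = 0.0319) and the kinase Jak2 (-0.14 ± 0.034, adjusted p = 0.00644) fell. Both lost the call with a library left out, Ifngr1 with an adjusted p up to 0.312 without PBS 1, PBS 3, WT_exo 1 or WT_exo 2 and Jak2 0.0737 without WT_exo 3. Ifng, which codes for the cytokine itself, was at 4.03, 6.93 and 4.96 CPM in the PBS libraries and 9.04, 7.30 and 5.96 CPM in the WT_exo libraries. The groups overlapped and the gene did not pass (0.48 ± 0.19, adjusted p = 0.132), although its adjusted p was 0.0356 without PBS replicate 2. Of 34 tested genes of the type I interferon response, 1 rose (2.94%, against 3.1%) and none fell, with a median of -0.09. Without PBS replicate 3 the median was 0.0050 and 3 rose, and none rose without PBS 1, PBS 2, WT_exo 1 or WT_exo 2. The 1 that rose was Parp14 (0.13 ± 0.043, adjusted p = 0.0474), whose groups overlapped and whose adjusted p was up to 0.385 without PBS 1, PBS 2, WT_exo 1 or WT_exo 2.

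The promoters of Igtp and Irgm1 are shown because both genes rose and hold letters known from interferon-responsive promoters. In Igtp the capitals mark a match to TTCNNNGAA, the site of STAT factors, and in Irgm1 they mark 2 overlapping matches to TTTC, any 2 bases and TTTC, the core of interferon-stimulated response elements, on the other strand.
Igtp (chr11:58199306-58199555, plus strand): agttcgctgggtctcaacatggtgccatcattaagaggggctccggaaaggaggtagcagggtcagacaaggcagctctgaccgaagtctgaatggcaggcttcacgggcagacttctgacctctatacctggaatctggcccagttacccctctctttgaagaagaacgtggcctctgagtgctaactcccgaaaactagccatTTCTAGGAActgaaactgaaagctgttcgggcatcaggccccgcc
Irgm1 (chr11:48871421-48871670, minus strand): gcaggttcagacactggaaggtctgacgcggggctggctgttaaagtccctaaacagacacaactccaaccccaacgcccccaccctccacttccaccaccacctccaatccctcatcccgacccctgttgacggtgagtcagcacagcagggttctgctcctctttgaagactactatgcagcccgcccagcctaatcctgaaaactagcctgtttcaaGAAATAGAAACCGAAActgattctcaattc
On either strand, that core was matched in 7 of the 10 rising interferon gamma genes with a single start (70.0%), in 2.77% of the genes tested, in 5.64% of all genes that rose and in 3.17% of those that fell. TTCNNNGAA was matched in 4 of the same 10, those of Igtp, Irgm2, Tgtp1 and Tgtp2, in 3 of the 7 rising NF-kB genes with a single start (42.9%) and in 6.15% of the genes tested. Genes were put in the interferon gamma list for their known roles. Listed genes that did not rise were not counted separately, so these shares do not bear on the response to exosomes.

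Immediate early genes, which receptor signals switch on within minutes, rose in part. Of 24 tested, 8 rose (33.3%, against 3.1%) and 1 fell, with a median of 0.11. Nr4a3, an orphan nuclear receptor induced by T cell receptor signals (ENSMUSG00000028341, GRCm38 chromosome 4, 48045153 to 48086447), was at 848, 848 and 753 CPM in the PBS libraries and 1012, 1008 and 977 CPM in the WT_exo libraries. No PBS value reached the lowest WT_exo value, and the log2 fold change was 0.29 ± 0.033, adjusted p = 3.78e-08. Its relative Nr4a1 (0.27 ± 0.038, adjusted p = 5.6e-06), the ERK phosphatase Dusp5 (0.28 ± 0.037, adjusted p = 1.73e-06), Egr1 (0.28), Jund (0.20) and Irf4 (0.13) were called in every fit that left out 1 library. Fosl2, a member of the AP-1 family, was the 1 that fell (-0.29 ± 0.054, adjusted p = 0.000282). Of 28 tested genes of T cell receptor and CD28 signalling, 6 rose and none fell, with a median of 0.03 that was 0.04 without WT_exo replicate 1. Those held in every such fit included Cblb, a ubiquitin ligase that restrains signalling (0.16 ± 0.030, adjusted p = 0.000385), and Prkcq, the kinase PKC theta (0.20 ± 0.039, adjusted p = 0.000623). Without WT_exo replicate 1 the count was 3.

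Genes listed for activation and costimulation split. Of 25 tested, 6 rose (24%, against 3.1%) and 2 fell (8%, against 4.5%). Not all of them code for surface markers: the rises included the transcription factor Irf8, which is also in the interferon gamma list. Lad1, which codes for ladinin (ENSMUSG00000041782, GRCm38 chromosome 1, 135818598 to 135833342), was at 191, 180.0 and 175 CPM in the PBS libraries and 275, 264 and 267 CPM in the WT_exo libraries. It had the largest rise among the genes with means over 100 CPM that are named here, with groups well apart and a log2 fold change of 0.56 ± 0.038, adjusted p = 2.03e-13. Cd69, an early activation antigen (0.21), Tnfsf11, the cytokine RANKL (0.47), and Tnfsf8, the ligand of CD30 (0.18), rose in every fit that left out 1 library. Il2ra, the alpha chain of the IL-2 receptor, was at 1999.7, 1994 and 1999 CPM in the PBS libraries and 1806, 1836 and 1856 CPM in the WT_exo libraries. It fell, without overlap, by a small amount (-0.12 ± 0.023, adjusted p = 0.000252), and Gm37881 overlaps it. Of 15 tested inhibitory receptors and ligands 3 rose and none fell. Cd274, the ligand PD-L1 (0.23 ± 0.048, adjusted p = 0.00155), held its call in every such fit, but Vsir (0.16 ± 0.046, adjusted p = 0.0224) and Cd200 (0.14 ± 0.039, adjusted p = 0.0233) did not, with adjusted p up to 0.124 without PBS 1, PBS 3, WT_exo 2 or WT_exo 3, and up to 0.0976 without PBS 1, PBS 3, WT_exo 1, WT_exo 2 or WT_exo 3.

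Genes typical of naive and resting T cells rose in part. Of 22 tested, 8 rose (36.4%, against 3.1%) and 1 fell, with a median of 0.07 that was 0.04 without WT_exo replicate 2. Ccr7, the chemokine receptor that guides naive T cells into lymph nodes (ENSMUSG00000037944, GRCm38 chromosome 11, 99144196 to 99155077), was at 750.2, 754 and 726 CPM in the PBS libraries and 908, 917 and 934 CPM in the WT_exo libraries. The groups did not overlap, and the log2 fold change was 0.31 ± 0.028, adjusted p = 3.48e-10. Slfn2, a gene needed for quiescence (0.25 ± 0.033, adjusted p = 1.7e-06), Klf2, a factor of quiescence and trafficking (0.32), Klf3 (0.34), Btg1 (0.25) and Bach2 (0.15) rose in every fit that left out 1 library. Satb1, a chromatin organiser, was the 1 that fell (-0.18 ± 0.026, adjusted p = 8.08e-06). Igfbp4 and Ly6c1 also rose, with adjusted p up to 0.323 without PBS 1, PBS 2 or WT_exo 2 for the first and up to 0.198 without PBS 2, PBS 3, WT_exo 1, WT_exo 2 or WT_exo 3 for the other.

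Of 20 tested genes of IL-2 and STAT5 signalling, 6 rose and 4 fell. The STAT5 targets Pim1 (0.19 ± 0.030, adjusted p = 1.73e-05) and Pim2 (0.19 ± 0.032, adjusted p = 4.31e-05), both survival kinases, and Stat5a itself (0.18) rose in every fit that left out 1 library. Il2ra and Il4ra (-0.16 ± 0.031, adjusted p = 0.000491) fell in all of them. The number that rose was 3 without PBS replicate 1 or WT_exo replicate 2, and the number that fell was 2 without PBS replicate 2, WT_exo replicate 1 or WT_exo replicate 3. Il2 was at 20.2, 22.7 and 24.6 CPM in the PBS libraries and 22.3, 22.9 and 22.8 CPM in the WT_exo libraries. Its groups overlapped and it did not pass (0.01 ± 0.096, adjusted p = 0.974). Of 24 tested genes of apoptosis and p53, 4 rose and 1 fell. Gadd45b, a stress-induced gene (0.31 ± 0.058, adjusted p = 0.000352), and Bcl2l1, the survival factor BCL-XL (0.18 ± 0.038, adjusted p = 0.0013), held in every such fit, but Zmat3 and Bax did not, which left 2 rises without PBS 1, PBS 2, WT_exo 1 or WT_exo 2. Zmat3 had adjusted p up to 0.205 without PBS 1, PBS 2, PBS 3, WT_exo 1 or WT_exo 2. Bax lost its call whichever library was left out, with adjusted p up to 0.208. Bcl2l11, the death factor BIM, fell (-0.22 ± 0.053, adjusted p = 0.00582) with an adjusted p up to 0.0563 without PBS 3 or WT_exo 1.

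Genes of the helper classes moved in small numbers. Of 23 tested Th1 genes 7 rose (30.4%, against 3.1%) and 1 fell. Tbx21, the T-bet factor that defines the class (0.19 ± 0.038, adjusted p = 0.000803), held in every fit that left out 1 library. The count was 3 without WT_exo replicate 2 and 4 without PBS replicate 1 or PBS replicate 2. Of 15 tested Th2 genes 3 fell (20%, against 4.5%) and 1 rose, with a median of -0.29 that was -0.18 to -0.19 without PBS 1, PBS 2 or WT_exo 2. Ccr4, a chemokine receptor of Th2 and regulatory cells (ENSMUSG00000047898, GRCm38 chromosome 9, 114490316 to 114504916), was at 106, 104 and 97.9 CPM in the PBS libraries and 70.2, 73.1 and 73.6 CPM in the WT_exo libraries. The groups did not overlap (-0.51 ± 0.052, adjusted p = 6.55e-09). Gata3, the factor of the class (-0.14), fell with an adjusted p that was up to 0.163 without PBS 1, PBS 3, WT_exo 2 or WT_exo 3. The 1 that rose was Stat6 (0.12 ± 0.034, adjusted p = 0.02), which overlaps Nab2, and its adjusted p was up to 0.148 without PBS 1 or WT_exo 3.

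Of 15 tested Th17 genes 2 rose and 2 fell. Irf4 held in every fit that left out 1 library, Il6st (0.14 ± 0.038, adjusted p = 0.0186) had adjusted p up to 0.173 without PBS 1, PBS 2 or WT_exo 2, and Il21 (-0.56 ± 0.14, adjusted p = 0.00856), a cytokine gene that overlaps Gm12534 and whose groups overlapped, had adjusted p up to 0.127 without PBS 3, WT_exo 1 or WT_exo 2. Of 20 tested genes of regulatory T cells 3 rose and 2 fell. Foxp3, the factor that defines them, was at 181, 176 and 182 CPM in the PBS libraries and 170.3, 183 and 189 CPM in the WT_exo libraries. Its groups overlapped and it did not pass (0.01 ± 0.041, adjusted p = 0.957). Il2ra, which is also in the regulatory T cell list, fell (-0.12 ± 0.023, adjusted p = 0.000252) in every fit that left out 1 library. Capg, an actin-capping protein in that list, rose (0.22 ± 0.053, adjusted p = 0.00516) in every fit, while Gpr83 (0.15 ± 0.042, adjusted p = 0.0216) had adjusted p up to 0.206 without PBS 1, WT_exo 2 or WT_exo 3. None of 18 tested genes of the TGF-beta pathway passed. None of 15 tested histone genes passed either, although their median was -0.39, and over the fits that left out 1 library that median ranged from -0.43 to -0.11. Their levels were low: the 21 listed histone genes together summed to 15.6 to 18.2 CPM with PBS and 12.7 to 14.4 CPM with WT_exo.

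Of 18 tested genes of the Notch pathway 1 rose and 2 fell. Jag2, a ligand of Notch receptors (ENSMUSG00000002799, GRCm38 chromosome 12, 112907819 to 112929776), was at 19.0, 19.0 and 19.9 CPM in the PBS libraries and 9.46, 7.36 and 7.51 CPM in the WT_exo libraries. Each WT_exo value was less than any PBS value by over 9 CPM, with a log2 fold change of -1.25 ± 0.12, adjusted p = 2.53e-09. Rbpj, the DNA-binding partner of Notch, fell (-0.20 ± 0.045, adjusted p = 0.00334) and Notch1, a receptor, rose (0.16 ± 0.032, adjusted p = 0.000902). All 3 held in every fit that left out 1 library. Of 22 tested chemokines and their receptors 3 rose and 1 fell. Ccl3 (0.71 ± 0.19, adjusted p = 0.0122) and Ccl4 (0.67 ± 0.19, adjusted p = 0.023), attractants of macrophages and T cells, rose from low levels, with adjusted p up to 0.177 without PBS 2 or WT_exo 1 for Ccl3 and up to 0.116 without PBS 1, PBS 2, WT_exo 1 or WT_exo 2 for Ccl4. Ccl22, a ligand of CCR4, rose in every such fit (0.28 ± 0.058, adjusted p = 0.00109), although its groups overlapped. Of 24 genes of the cytoskeleton 2 rose and 5 fell, among them Stmn1, which destabilises microtubules (-0.66 ± 0.11, adjusted p = 8.65e-05), Tubb5 (-0.21 ± 0.023, adjusted p = 4.28e-08) and Lmnb1 (-0.19 ± 0.038, adjusted p = 0.000731). Without PBS 1, PBS 2 or WT_exo 1, 3 of them fell.

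**Figure D4:**
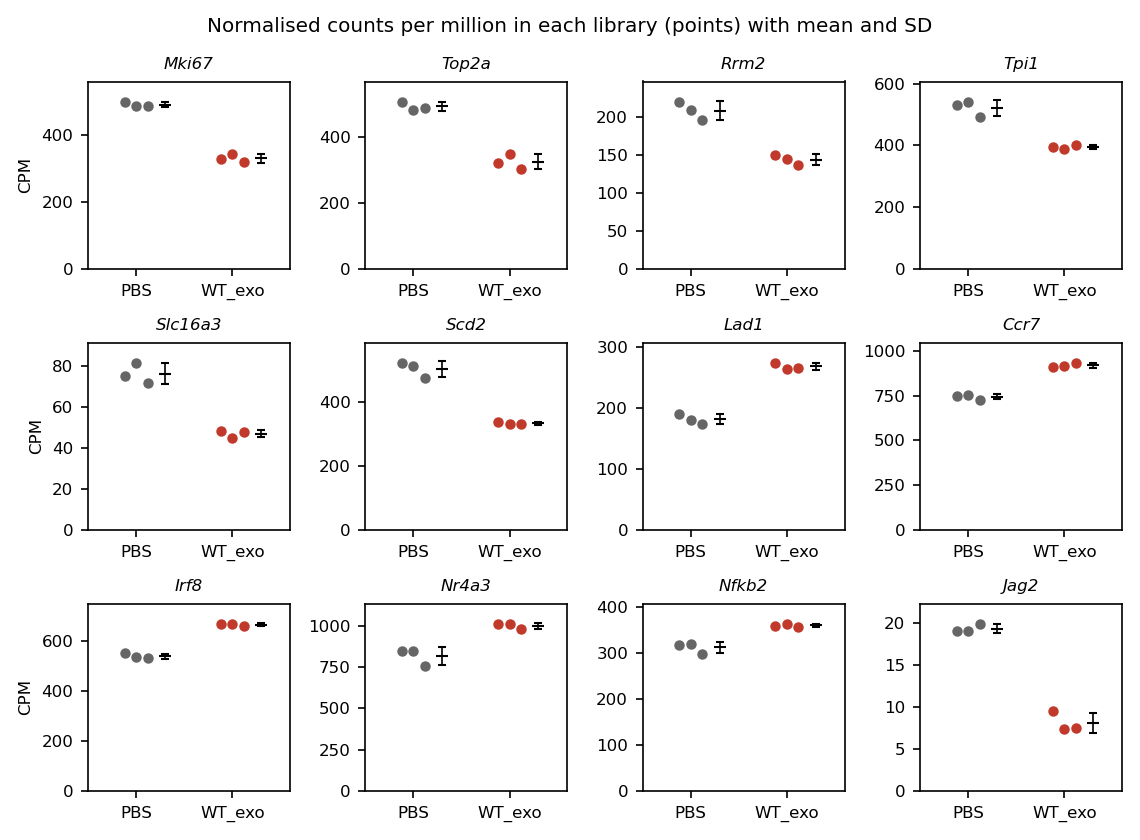
Normalised CPM of 12 genes in each of the 6 libraries (points, grey for PBS and red for WT_exo), with the mean and SD of each group of 3 beside them and every axis starting at 0. In all 12 panels the groups do not overlap, with WT_exo below PBS for Mki67, Top2a, Rrm2, Tpi1, Slc16a3, Scd2 and Jag2 and above it for Lad1, Ccr7, Irf8, Nr4a3 and Nfkb2.

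Where the level averaged 5 CPM or more and the groups did not overlap, the largest rise was that of Serpine2, a secreted inhibitor of serine proteases (ENSMUSG00000026249, GRCm38 chromosome 1, 79794197 to 79861180). It was at 7.74, 7.41 and 6.24 CPM in the PBS libraries and 15.6, 14.8 and 11.1 CPM in the WT_exo libraries. WT_exo replicate 3 lay below the other WT_exo libraries but above all PBS libraries, with a log2 fold change of 0.96 ± 0.14, adjusted p = 1.35e-05. Ccl3 and Ccl4 came next, followed by Spata2l (0.57 ± 0.16, adjusted p = 0.023), Lad1 and Ccdc141 (0.56 ± 0.072, adjusted p = 9.65e-07). Rbm12b1 (0.55), Lzts2 (0.54), Rps6 (0.54), which codes for a ribosomal protein, and Hyls1 (0.49 ± 0.091, adjusted p = 0.000242), a gene of centrioles and cilia, complete the 10. Calls were lost with a library left out, with adjusted p up to 0.112 without PBS 1, WT_exo 1 or WT_exo 3 for Spata2l, up to 0.116 without PBS 2, PBS 3, WT_exo 2 or WT_exo 3 for Rbm12b1, up to 0.172 without PBS 1, PBS 2, WT_exo 2 or WT_exo 3 for Lzts2, and up to 0.197 without PBS 2, PBS 3, WT_exo 1, WT_exo 2 or WT_exo 3 for Rps6. Spata2l overlaps Cdk10 and Hyls1 overlaps Pus3 on the opposite strand. Rps6 had a mean of only 6.25 CPM with PBS and 9.08 CPM with WT_exo. Ribosomal protein genes have near-identical copies elsewhere, so its counts are uncertain.

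The falls were larger. Fads2 came first, followed by Jag2 and then by Ighg2c, an immunoglobulin heavy chain constant gene (-1.14 ± 0.21, adjusted p = 0.000171). Tgm2, a protein-crosslinking transglutaminase (ENSMUSG00000037820, GRCm38 chromosome 2, 158116402 to 158146436), was at 23.2, 22.9 and 24.2 CPM in the PBS libraries and 12.7, 11.3 and 12.1 CPM in the WT_exo libraries. Its groups lay apart, with a log2 fold change of -0.96 ± 0.11, adjusted p = 2.29e-08, but it overlaps Rprd1b on the opposite strand. Mrnip, which overlaps Sqstm1, changed by -0.91 ± 0.20, adjusted p = 0.00262, and Stra6, the receptor for retinol-binding protein, by -0.89 ± 0.19, adjusted p = 0.00155. Dscc1, a subunit of a clamp loader for sister chromatid cohesion, changed by -0.84 ± 0.13, adjusted p = 1.24e-05. Nedd4, a ubiquitin ligase (ENSMUSG00000032216, GRCm38 chromosome 9, 72662346 to 72749852), was at 32.4, 31.1 and 32.9 CPM in the PBS libraries and 19.2, 17.3 and 17.8 CPM in the WT_exo libraries. The groups did not overlap (-0.83 ± 0.090, adjusted p = 2.29e-08). Dab2ip, a regulator of Ras, and Ajuba, a LIM domain protein, completed the 10 with -0.82 ± 0.16, adjusted p = 0.000451 and -0.81 ± 0.11, adjusted p = 2.45e-06. None of these 10 genes lost its call in a fit that left out 1 library.

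Markers of other cell types were checked beside these results. Of 31 macrophage and monocyte markers 17 could be tested, of which 1 rose and none fell, and their summed level was 418 to 431 CPM with PBS and 438 to 445 CPM with WT_exo. Adgre1, C1qb, C1qc and Trem2, all defining genes, had 0 to 6 counts in any library. The 1 that rose was Ctss, a cathepsin (0.22 ± 0.069, adjusted p = 0.0416), with an adjusted p that was up to 0.235 without PBS 1, PBS 2, WT_exo 2 or WT_exo 3. Apoe, the gene absent from the other exosome donors, was at 14.2, 16.9 and 14.1 CPM in the PBS libraries and 19.4, 17.0 and 17.8 CPM in the WT_exo libraries in these wild-type T cells. The groups did not overlap, but the gene did not pass (0.26 ± 0.11, adjusted p = 0.169). Lyz2, the lysozyme of myeloid cells, did not pass either (0.16 ± 0.14, adjusted p = 0.582). Of 17 tested B cell markers 1 rose, Cd74, the invariant chain (0.18 ± 0.052, adjusted p = 0.0237), with adjusted p up to 0.111 without PBS 1, PBS 3, WT_exo 1 or WT_exo 2, and their summed level was 664 to 704 CPM with PBS and 669.6 to 727 CPM with WT_exo.

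Of 7 tested dendritic cell markers 1 rose, Irf8, and the summed level moved with it, at 584 to 601 CPM with PBS and 708 to 722 CPM with WT_exo. Irf8 itself made up most of that sum, at a mean of 539.9 CPM with PBS and 667 CPM with WT_exo. The part of dendritic, B or myeloid cells in the rise of the interferon gamma genes was not tested. Of 7 tested CD8 T cell and 5 NK cell markers, which share it, 1 fell, Gzma, from 1.03 to 0.191 CPM (-2.40 ± 0.60, adjusted p = 0.00816), with adjusted p up to 0.085 without PBS 1, PBS 3, WT_exo 1 or WT_exo 2. No tested neutrophil, erythroid or platelet marker passed (2, 4 and 3 genes). Of 11 CD4 T cell markers 1 rose, Cd5 (0.11 ± 0.033, adjusted p = 0.0291), with adjusted p up to 0.204 without PBS 1, PBS 2, WT_exo 2 or WT_exo 3, and 1 fell, Thy1 (-0.24 ± 0.033, adjusted p = 2.32e-06). Cd4 (-0.07 ± 0.027, adjusted p = 0.103) and Cd3e (-0.02 ± 0.031, adjusted p = 0.853) did not pass. Under DESeq2 and without PBS replicate 3, Cd4 did, with adjusted p of 0.0446 and 0.0362.

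Whether the exosomes of wild-type macrophages act differently from those of ApoE-deficient macrophages was tested directly, as the contrast EKO_exo minus WT_exo in a fit to all 9 libraries. For each gene that fit shared its spread over the PBS, WT_exo and EKO_exo groups. Of 14684 genes tested, 5 differed (0.0341%), 4 higher (0.0272%) and 1 lower (0.00681%) in EKO_exo, while 1039 genes (7.08%) had an unadjusted p under 0.05. Tpt1, which codes for the translationally controlled tumour protein, was the 1 that was lower with EKO_exo (log2 difference -0.16 ± 0.029, adjusted p = 0.0207). Its means ± SD were 1088 ± 23.1 CPM for PBS, 1262 ± 57.5 CPM for WT_exo and 1126 ± 15.3 CPM for EKO_exo, so the WT_exo group was the highest. The mitochondrial mRNA mt-Nd4 was higher with EKO_exo (log2 difference 0.20 ± 0.035, adjusted p = 0.0207). It was at 793 ± 36.5, 690.1 ± 30.9 and 791 ± 23.6 CPM in the same order, lowest with WT_exo. B2m, which codes for beta-2 microglobulin, was higher as well (log2 difference 0.13 ± 0.024, adjusted p = 0.0403), at 1972 ± 40.5, 2055 ± 44.6 and 2247 ± 52.8 CPM. Tpt1 has near-identical processed copies in the genome, so its counts are uncertain. Over the other settings tried, the number of genes called between the exosome kinds ran from 0 to 24 higher and from 0 to 5 lower in EKO_exo, and without WT_exo replicate 2 it was 0 in both directions.

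The other 2 of the 5 were immunoglobulin genes. Igkc, the kappa light chain constant gene, was at 98.2, 111 and 105 CPM with PBS, 92.8, 86.5 and 104 CPM with WT_exo, and 121, 127 and 133 CPM with EKO_exo (log2 difference 0.43 ± 0.061, adjusted p = 0.00219). Every EKO_exo library lay above every library of the other groups. Ighg2c was at 5.70, 10.7 and 10.5 CPM with PBS, 4.53, 4.79 and 2.94 CPM with WT_exo, and 8.30, 10.1 and 9.63 CPM with EKO_exo (log2 difference 1.19 ± 0.21, adjusted p = 0.0207). Only the WT_exo libraries were below the range of both other groups. Immunoglobulin genes are members of families with close copies, so reads may be split between them. Of the B cell markers, none other than Igkc differed between the exosome kinds, and the part of B cells in these values was not tested.

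**Figure D5:**
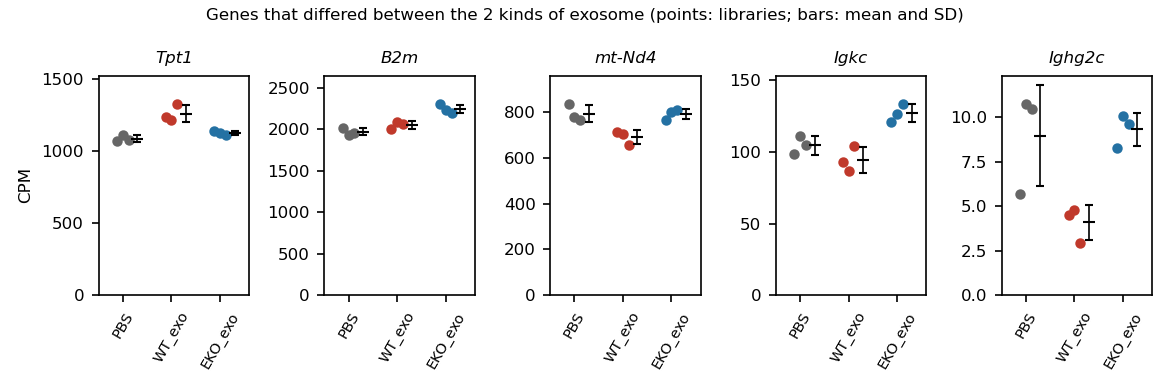
CPM of the 5 genes that differed between EKO_exo and WT_exo, with 3 libraries (points) and the mean and SD of each group, for PBS, WT_exo and EKO_exo, on axes that start at 0. WT_exo lies highest for Tpt1 and lowest for mt-Nd4 and Ighg2c, and EKO_exo lies highest for Igkc and B2m.

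None of the 40 cell cycle genes differed between the exosome kinds at that threshold. Both comparisons with PBS share the PBS libraries, so their values are given side by side and not as independent results. The cell cycle median was -0.39 for WT_exo and -0.33 for EKO_exo against PBS in the fit to 9 libraries, and the median of the direct differences was 0.03. For Mki67 the direct difference was 0.07 ± 0.035, for Top2a -0.01 ± 0.047, for Scd2 0.05 ± 0.042 and for Slc16a3 -0.10 ± 0.073. The NF-kB medians were 0.13 and 0.11, and the interferon gamma medians 0.13 and 0.12. B2m was the only member of the interferon gamma list that differed between the kinds. Jag2 differed by 0.44 ± 0.15 and Fads2 by 0.36 ± 0.23, with adjusted p of 0.512 and 0.791. A p that misses the threshold does not show that the exosome kinds act alike.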

How the data were processed

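Counts of reads per gene, whole numbers with no normalization, were used as deposited by the authors. Reads were aligned with STAR 2.7.5c to GRCm38, per the submitters' processing notes. Which tool counted reads, with which strand setting and annotation, is not given in the sources used here. RNA was extracted with an RNeasy Mini kit and libraries were made with the Universal Plus mRNA-Seq kit, per the labels' protocols. Symbols and coordinates came from GENCODE M21, which names 55450 of the 55536 identifiers, and promoters from RefSeq.

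Groups came from the sample titles. No 2 replicates looked like 1 library, since chi-square over its degrees of freedom was 5.21 to 6.16 between replicates. Genes were kept by filterByExpr (minimum count 10, minimum total 15), which left at least 99.90% of every library's counts. Libraries were scaled by TMM, and CPM are relative to the scaled size. The edgeR 4.0.16 quasi-likelihood F test (R 4.3.3) was fitted to the 6 libraries, with 4 residual and 32.8 prior degrees of freedom and a common biological coefficient of variation of 6.83%, and p-values were adjusted by Benjamini-Hochberg over all genes tested. Genes were called at 0.05. An exact permutation test of 3 against 3 cannot go below 0.1. EKO_exo libraries stayed out of this fit, since an earlier analysis had found a larger spread there, and entered the 9-library contrast EKO_exo minus WT_exo. That contrast used a spread shared by all groups. If the EKO_exo spread is larger, the SE and p-values between the exosome kinds may be too small. The code was tested on simulated counts.

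The comparison, its genes and its lists were chosen with earlier results of these data known. Named genes are the 10 largest rises and falls among called genes with at least 5 CPM, no overlap of groups and an ordinary symbol, from each list with at least 3 called members the 3 of lowest p, all called members of smaller lists, and a fixed set of 18 genes. Other list members were named after their values were seen. Some genes that the rule names are not reported here. Counting intervals cover counting error only. Alternatives were other scalings, DESeq2 1.42.0, limma-voom 3.58.1, other filters and thresholds, all 9 libraries, a replicate block and each library left out.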

Additional observations from a re-analysis of the deposited data

Results flagged for a closer look

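5 genes differed between the kinds of exosome in the direct test of EKO_exo against WT_exo (edgeR quasi-likelihood test over 9 libraries, 14684 genes). On the log2 scale, EKO_exo minus WT_exo, the difference was -0.16 for Tpt1, 0.13 for B2m, 0.20 for mt-Nd4, 0.43 for Igkc and 1.19 for Ighg2c. For Tpt1, mt-Nd4 and Ighg2c the WT_exo group lay apart from PBS, while for Igkc and B2m the EKO_exo group did. Without WT_exo replicate 2 none of the 5 was called.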

How the results depend on the processing

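No named gene changed direction among the called genes, and the counts of cell cycle falls, glycolysis falls and interferon gamma rises stayed within 1.5 times of the values in the report under every alternative. The 436 rises became 269 with all 9 libraries in the fit and 199 at an adjusted p under 0.01, and ranged from 225 to 445 with 1 library left out. The 632 falls became 394 at 0.01 and ranged from 412 to 604 with 1 library left out. The 12 NF-kB rises became 7 at 0.01 and ranged from 6 to 12. The causes of these shifts were not tested. Between the exosome kinds, the 4 genes higher in EKO_exo became 1 with the replicate block, 7 at a mean of at least 5 CPM, 24 with no low-count filter and 20 by DESeq2, with 0 to 5 when a library was left out. The 1 lower gene became 0 with the block, 2 at 5 CPM, 4 with no filter and 5 by DESeq2, with 0 to 2. The median log2 fold change of all genes was 0.0034 with RLE scaling and -0.0018 with upper quartile scaling.

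No sign of pairing by replicate number was seen: same-numbered PBS and WT_exo libraries had deviations that correlated by 0.0113, -0.0105 and 0.00335 over genes. Differently numbered libraries ran from -0.0328 to 0.0305. Such values cannot show that the samples were unpaired. With the replicate block 1013 genes were called, of which 993 were shared with the 1068. Under 1 CPM, 0.984% of genes were called, against 18.3% at 100 CPM or more, and the part of depth in this was not tested.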

Other observations

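The gene families here were picked after their values were seen, and some members, such as Kif11, Cenpe, Pola1 and Pole, are also in the 40-gene cell cycle list, so the counts are a description and support nothing. Of all genes tested 3.1% rose and 4.5% fell. Of 29 kinesins (Kif) 12 fell and none rose, with a median of -0.24. Of 21 centromere proteins (Cenp) 7 fell, with a median of -0.34, and of 12 condensin and cohesin genes (Ncap and Smc) 9 fell, with a median of -0.17. Of 15 genes of replication factor C and the replicative DNA polymerases 11 fell, and of 10 Fanconi anaemia genes (Fanc), which repair crosslinked DNA, 4 fell. None of these families had a member that rose.

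Of 7 schlafen genes (Slfn) 3 rose and 1 fell. Of 13 histone methyltransferase genes (Kmt2 and Setd) 3 rose and none fell. Of 41 immunoglobulin kappa variable genes 5 fell and none rose, with a median of -0.24, and of 35 heavy variable genes 1 fell. Such genes share sequence, so reads may be split between them.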
